A study of Mus musculus with 212 samples.

Results

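The comparison set 6 single cells named D8, from day 8 of a culture in which mouse embryonic stem cells differentiate toward heart, against 6 single cells named E9.5, from mouse embryos at embryonic day 9.5. These 12 cells are 12 of the 200 cells in the series, which holds a further 12 control columns. They were chosen by the cell names inside the tables: the table of days 5 to 8 holds 6 cells a day and the table of stages E7.5 to E10.5 holds 6 cells a stage. Both sets are labelled as cardiac cells, were sorted one by one, and were measured by pre-amplified TaqMan qPCR on Fluidigm chips with 42 assays for 33 genes. Strain, stem cell line, sex, sorting marker, animal and culture are not given in the labels of either set, so each set is 1 sample, no difference was tested, and the SD given throughout is the spread between cells. Genes with a pair of assays carry a number after the name, such as Kit-1 and Kit-2.

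The sample titles go against the tables. The samples of the day table are titled as E10.5 cells from mouse embryo, and those of the stage table as stem cell derived cells from embryoid bodies. The cell names were followed here, so which set is culture and which is embryo rests on them. All 6 cells named E10.5 in the stage table had the same values, within 1e-06 cycles, as cells of the separate E10.5 table, whose samples are titled as embryo derived. In the table of days 5 to 8, 0 cells matched them. The table of days 23 to 29 is titled as stem cell derived cells at early stages, so further titles may be displaced. The embryo title of the separate E10.5 table may be among those, so it does not settle which set is embryo.

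In the mouse the heart tube begins to beat, loops and forms its chambers around the middle of gestation. Young cardiomyocytes then carry sarcomere proteins such as cardiac troponin T (Tnnt2), both cardiac myosin heavy chains (Myh6, alpha, and Myh7, beta) and the transcription factors Nkx2-5, Gata4, Tbx5 and Mef2c. They also pass through a phase in which they express genes better known from smooth muscle, among them Tagln (the Sm22A assay), which encodes the actin-binding protein transgelin. Cultured embryonic stem cells give beating cardiomyocytes through a similar sequence of mesoderm, progenitor and muscle genes.

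Levels are 25 minus the Ct value, in cycles on a log2 scale, so that a higher value is more transcript and 0 means no signal within 25 cycles. Differences are D8 minus E9.5, and 1 cycle was taken as the smallest difference to count. An assay's level cannot be set against another assay's without its efficiency, so differences between assays within a cell are compared only between the sets.

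D8 cells gave less signal in general. The assays detected numbered 31, 31, 28, 20, 21 and 23 in cells D8-1 to D8-6, a mean of 25.7 ± 4.97 (SD, n = 6). They numbered 34, 30, 28, 28, 28 and 29 in cells E9.5-1 to E9.5-6, a mean of 29.5 ± 2.35 (SD, n = 6). Cells D8-4, D8-5 and D8-6 thus had fewer detected assays than every E9.5 cell. The housekeeping assay Actb (beta-actin) was at 8.65, 6.90, 9.16, 4.80, 6.66 and 6.38 cycles in the D8 cells and at 8.53, 8.10, 9.70, 8.67, 9.59 and 8.61 in the E9.5 cells, a difference of -1.77. Its lowest values were in the same 3 D8 cells, as the plot of Actb against detected assays shows. Fewer transcripts per cell and poorer recovery of RNA from a cell cannot be told apart here. The negative control columns of both tables had 0 assays with signal, and the positive control columns were equal in 42 of 42 assays, so they give no measure of a difference between the tables.

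**Figure D1:**
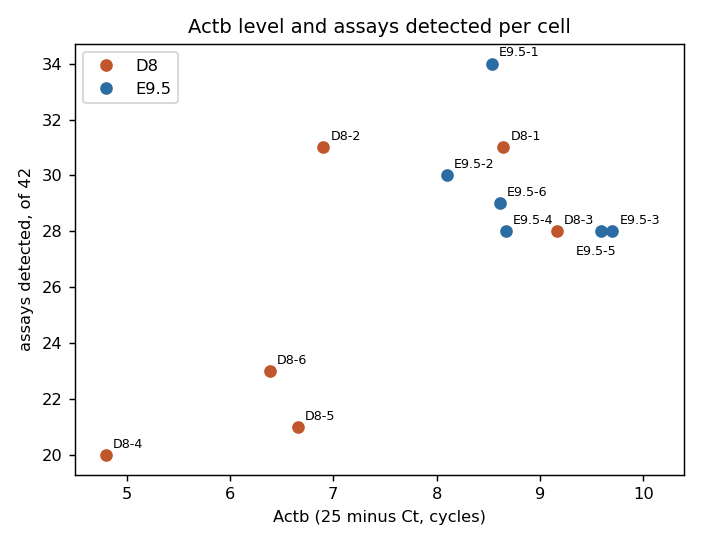
Number of detected assays, of 42 (vertical), against the Actb level in cycles (horizontal) for each of the 6 D8 and 6 E9.5 cells. Cells D8-4, D8-5 and D8-6 lie at the lower left, with 20, 21 and 23 assays, below the 28 to 34 of the E9.5 cells.

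As measured, 24 of the 42 assays had a mean at least 1 cycle lower in D8 cells (57.1% of assays), 2 had one at least 1 cycle higher (4.76%), and 16 lay within 1 cycle. The median difference over all assays was -1.39 cycles. To take the general difference out of the detected values, each cell was also centred on its own Actb, on its median detected assay, and on its Tnnt2-1. These centrings moved the median assay up by 1.39, 1.27 and 1.39 cycles. Centred on Actb, 10 assays were lower (23.8%) and 7 higher (16.7%). The groups did not overlap for 4 assays as measured (9.52%), Sm22A, Cnn1, Cnn2 and Vim, all lower in D8 cells, and for 0 in the other direction (0%). After centring on Actb this held for 1 assay, Sm22A (2.38%), and for 0 in the other direction (0%).

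On all 4 scales, 9 assays stayed at least 1 cycle lower in D8 cells: Sm22A, Vcam1, Cnn1, Myh7-1, Myh7-2, Gata4-1, Flk-1, Myl2 and Kit-2. On all 4 scales Pdgfra and Isl1-2 stayed at least 1 cycle higher. Most of the 9 rested on the 3 D8 cells with few detected assays. With D8-4, D8-5 and D8-6 left out, 3 of the 9 were lower on all 4 scales, Sm22A, Vcam1 and Flk-1, while Pdgfra and Isl1-2 remained higher and were joined by Hand1, Myh6-2 and Sox2. That subset of D8 cells was chosen after its values were seen. The centred scales also place every undetected value at the same floor in all cells, -8.289 on Actb. D8-4, with Actb at 4.80 cycles, could not have given a detected value that low. Centring therefore did not take the low signal out of assays with undetected D8 values, such as Kit-2 and Gata4-1.

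**Figure D2:**
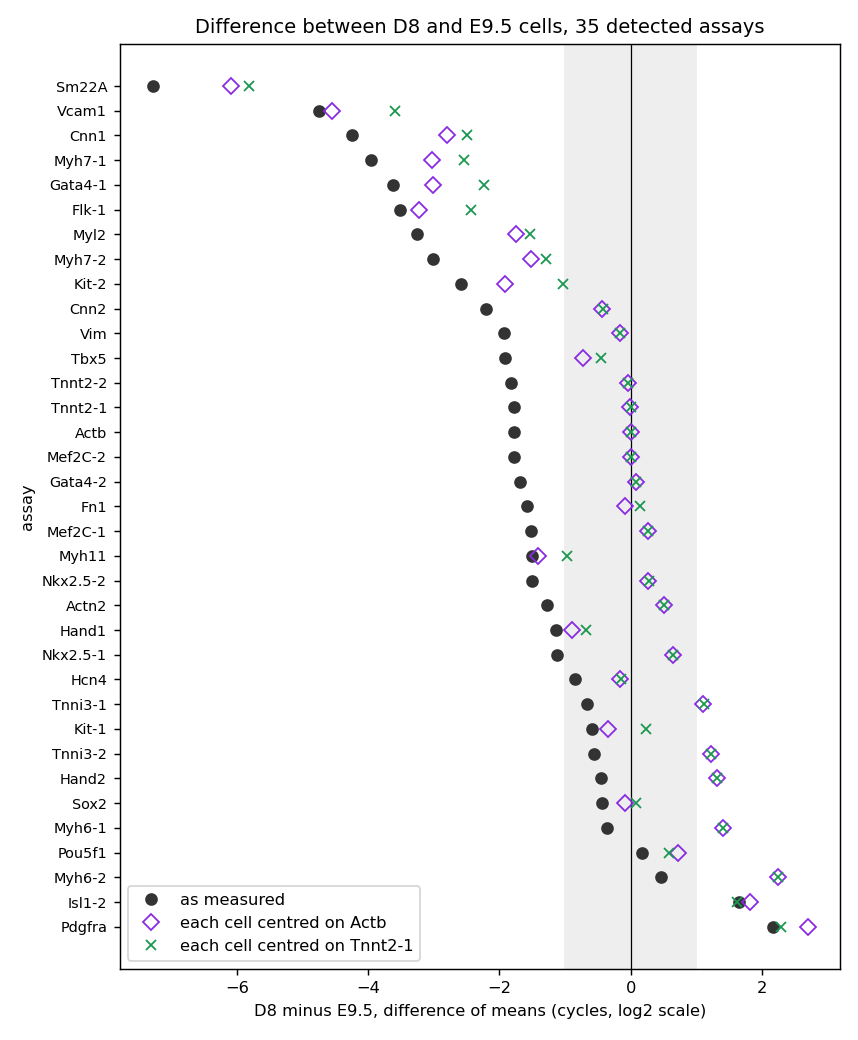
Difference of means, D8 minus E9.5, in cycles (horizontal) for the 35 assays detected in at least 1 of the 12 cells, as measured (filled circles), centred on Actb (diamonds) and centred on Tnnt2-1 (crosses). The grey band spans 1 cycle either way. Sm22A lies farthest to the left on each scale shown, and centring moves most assays to the right.

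Both sets carried the defining cardiomyocyte markers. Tnnt2-1 was detected in all 12 cells, at 12.38, 10.55, 12.32, 9.51, 11.06 and 11.24 cycles in the D8 cells and at 12.12, 13.19, 12.88, 12.95, 12.70 and 13.89 in the E9.5 cells. Its mean was 11.18 ± 1.09 in D8 and 12.96 ± 0.58 in E9.5 cells (SD, n = 6 each), a difference of -1.78 that was nearly that of Actb. Tnni3 (cardiac troponin I) and Actn2 (alpha-actinin of the Z disc) were also detected in every cell. Their differences as measured were -0.67 for Tnni3-1, -0.55 for Tnni3-2 and -1.27 for Actn2. Centred on Actb these were 1.11, 1.22 and 0.51. The cardiomyocyte list held 10 assays, of which 6 had a D8 mean at least 1 cycle lower and 0 a higher one as measured, and its median difference was -1.52. The share of lower assays on the list was near the 57.1% over all assays. Centred on Actb, 3 were lower, Myl2 and both of Myh7, and 4 higher, both of Myh6 and both of Tnni3. Over all assays 23.8% were lower and 16.7% higher on that scale. The list had a median of 0.25, against a median of 0 over all assays.

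**Figure D3:**
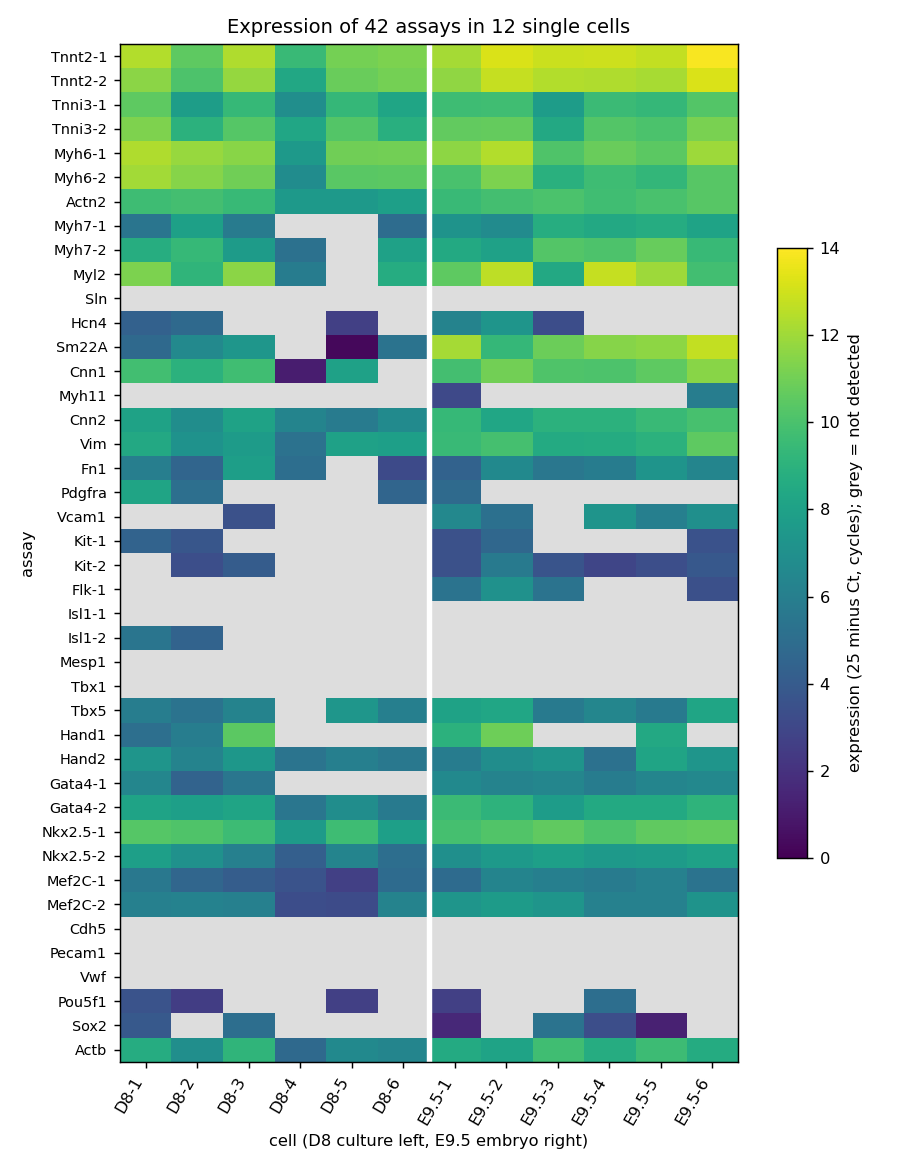
Expression (25 minus Ct, in cycles, colour scale) of the 42 assays in each of the 12 cells, D8 cells left and E9.5 cells right of the white line, with grey for no signal. The contractile assays at the top are filled in nearly every cell, while Vcam1, Kit-2, Flk-1 and Gata4-1 have more grey fields among the D8 cells.

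The mean balance of the cardiac myosin heavy chains differed between the sets, while the ranges over cells overlapped. Myh6 and Myh7 are neighbouring genes on mouse chromosome 14 whose products power the sarcomere, and their balance changes with the developmental age of the mouse heart. Their promoters are shown because the assays of both genes differed between the sets in opposite directions once the cells were centred. The windows run from 250 bases before to 50 bases after the annotated start, from RefSeq on build GRCm38.p6, on the minus strand: chr14:54966558-54966857 for Myh6 and chr14:54994577-54994876 for Myh7.
Myh6: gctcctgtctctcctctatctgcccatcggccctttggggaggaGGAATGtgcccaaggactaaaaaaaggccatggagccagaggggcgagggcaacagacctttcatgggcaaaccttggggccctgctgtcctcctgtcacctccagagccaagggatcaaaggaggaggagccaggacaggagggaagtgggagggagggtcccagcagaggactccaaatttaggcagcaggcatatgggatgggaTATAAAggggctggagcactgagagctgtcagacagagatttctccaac
Myh7: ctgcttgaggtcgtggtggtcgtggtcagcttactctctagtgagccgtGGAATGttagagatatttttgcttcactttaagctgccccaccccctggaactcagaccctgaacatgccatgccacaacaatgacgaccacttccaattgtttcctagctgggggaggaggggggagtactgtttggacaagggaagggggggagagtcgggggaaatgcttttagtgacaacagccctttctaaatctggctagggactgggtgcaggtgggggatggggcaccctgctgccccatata
Capitals mark matches to the M-CAT motif CATTCC, read here on the other strand as GGAATG, and to TATAAA. The M-CAT letters occur in 14.7% and TATAAA in 13.6% of 32851 mouse promoter windows of the same length, searched on both strands. The letters AGATAA, which GATA factors bind, occur in 11.2% of windows and the CArG box in 1.63%, and neither had a match in these windows. RefSeq lists another start of Myh7, whose window chr14:54994500-54994799 held none of these motifs. No measurement was made at these promoters, and the motif matches are a description of the letters alone.

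Myh6-1 was at 12.33, 11.83, 11.51, 7.53, 10.97 and 11.03 cycles in the D8 cells and at 11.62, 12.36, 10.15, 10.82, 10.49 and 11.94 in the E9.5 cells. The sets overlapped, and D8-4 alone was low. The difference of means was -0.36 as measured and 1.41 centred on Actb. Its second assay, Myh6-2, differed by 0.47 as measured and by 2.24 centred on Actb.

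Myh7-1 was at 5.44, 7.96, 5.84, 0, 0 and 4.97 cycles in the D8 cells and at 7.19, 6.76, 8.70, 8.43, 8.69 and 8.14 in the E9.5 cells, a difference of -3.95. Only D8-2 reached the range of the E9.5 cells. Myh7-2 gave a difference of -3.02, with 5 of 6 D8 and 6 of 6 E9.5 cells detecting it. Within a cell, Myh7-1 lay 5.62 ± 1.27 cycles below Myh6-1 in the 4 D8 cells that detected both and 3.24 ± 1.63 below it in the 6 E9.5 cells. For Myh7-2 the gap to Myh6-1 was 3.05 ± 0.67 in 5 D8 cells and 1.71 ± 1.88 in 6 E9.5 cells, a shift smaller than the SD of the E9.5 cells. Myh7-1 minus Myh6-1 ran between -6.89 and -3.87 in D8 and between -5.60 and -1.45 in E9.5 cells. For Myh7-2 the D8 range, -3.82 to -2.33, lay inside the E9.5 range, -4.34 to 0.26. In the 3 D8 cells with more detected assays, Myh7-1 and Myh7-2 differed from the E9.5 mean by -1.57 and -0.92, which centring on Actb brought to -0.94 and -0.29. Centring those cells on Tnnt2-1 gave -0.37 for Myh7-1 and turned Myh7-2 to 0.28.

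Myl2, the regulatory light chain of ventricular muscle, was at 11.24, 9.19, 11.59, 5.88, 0 and 8.65 cycles in the D8 cells and at 10.52, 12.63, 8.45, 12.74, 11.97 and 9.74 in the E9.5 cells. The difference of -3.25 came with wide overlap, and it was -0.33 without D8-4, D8-5 and D8-6. Without those cells it turned to 0.29 on Actb, 0.67 on the median detected assay and 0.87 on Tnnt2-1. All 3 assays of the ventricular list, Myl2 and both of Myh7, were at least 1 cycle lower on all 4 scales with every cell included. Over all assays this held for 9 of 42. On the atrial list, Sln (sarcolipin) was detected in 0 of 12 cells. Hcn4, a pacemaker channel, was detected in 3 cells of each set, at means of 1.96 ± 2.27 in D8 and 2.81 ± 3.35 in E9.5 cells (SD, n = 6 each).

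The smooth muscle list held the greatest difference. Sm22A was at 4.78, 6.61, 7.37, 0, 0.30 and 5.32 cycles in the D8 cells and at 12.09, 9.34, 10.84, 11.48, 11.59 and 12.74 in the E9.5 cells. Every E9.5 cell was above every D8 cell, as measured and on each centring. Centred on Tnnt2-1 the sets nearly touched, with the highest D8 cell at -3.93 and the lowest E9.5 cell at -3.85. The mean was 4.06 ± 3.17 in D8 and 11.35 ± 1.17 in E9.5 cells (SD, n = 6 each), a difference of -7.28 as measured, -6.09 centred on Actb and -5.82 centred on Tnnt2-1. Without D8-4, D8-5 and D8-6 the difference was -5.10 as measured and -4.47 centred on Actb. The name Sm22A is a RefSeq synonym of both Tagln and Tagln2, and it was read as Tagln.

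Cnn1 (calponin, which binds actin in smooth muscle and young heart) was at 9.75, 9.01, 9.71, 1.15, 8.03 and 0 cycles in the D8 cells and ran between 9.84 and 11.53 in the E9.5 cells, with a median of 10.31. The sets did not overlap as measured, although D8-1 at 9.75 and E9.5-1 at 9.84 lay close together. D8-4 and D8-6 were far below the other D8 cells, and the difference of means was -4.25. Without the 3 D8 cells of few assays it was -1.03 as measured and -0.41 centred on Actb. Cnn2, the calponin found in many cell types, had means of 6.97 ± 0.92 in D8 and 9.17 ± 0.55 in E9.5 cells (SD, n = 6 each), a difference of -2.21 that centring on Actb brought to -0.43.

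Myh11, the smooth muscle myosin and the defining marker of that cell type among these assays, was detected in 0 of 6 D8 cells and in 2 of 6 E9.5 cells, at 3.12 cycles in E9.5-1 and 5.93 in E9.5-6. The reference smooth muscle cells of the series had Sm22A at 11.91 ± 1.11 cycles, a mean near that of the E9.5 cells, and the reference cardiomyocytes had it at 0.86 ± 0.65 (SD, n = 5 each). Those reference cardiomyocytes may hold cultured cells, as described below. Summed over the 3 smooth muscle assays, the level ran between 1.15 and 17.07 cycles in D8 cells and between 20.37 and 30.20 in E9.5 cells. The 4 E9.5 cells without Myh11 signal had Sm22A between 9.34 and 11.59 cycles, and the 6 D8 cells had it between 0 and 7.37.

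**Figure D4:**
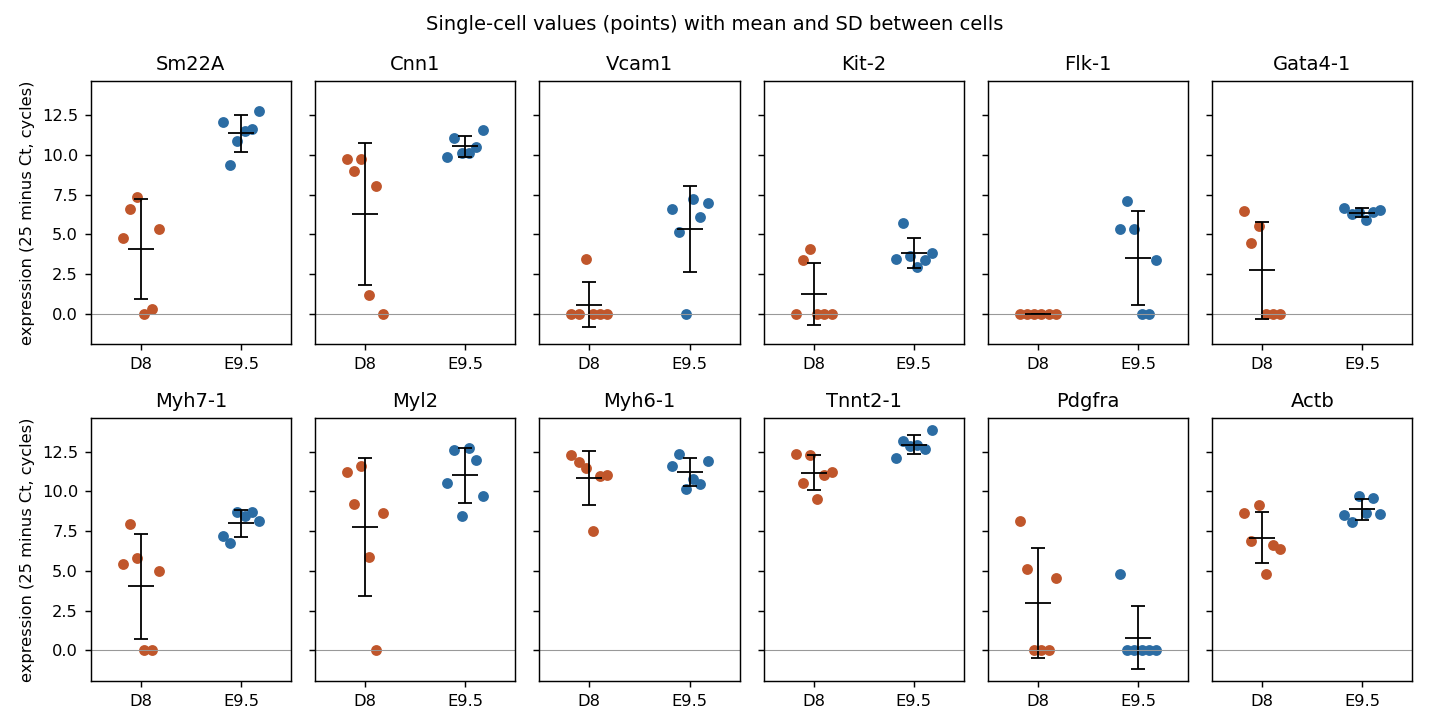
Expression (25 minus Ct, in cycles) of 12 assays in each cell, D8 left and E9.5 right, with points for cells and bars for the mean and SD of 6 cells. The sets are separate for Sm22A and nearly touch for Cnn1, while Myh6-1 overlaps fully.

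Vcam1 and Flk-1 were among the 14 of 42 assays detected in fewer D8 than E9.5 cells, while 3 were detected in more. Vcam1, an adhesion molecule of the young myocardium and of endothelium, was at 3.47 cycles in D8-3 and at 0 in the other D8 cells. In the E9.5 cells it was at 6.56, 5.14, 0, 7.23, 6.07 and 6.97. It was thus detected in 1 of 6 D8 cells (16.7%, exact 95% interval 0.42 to 64.1%) and in 5 of 6 E9.5 cells (83.3%, 35.9 to 99.6%). These intervals cover counting error only, and they overlap. The difference of means was -4.75 as measured, -4.55 centred on Actb and -4.17 without the 3 D8 cells of few assays. E9.5-3, the embryo cell without Vcam1 signal, had the highest Actb of the 12 cells.

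Flk-1 (Kdr, the VEGF receptor of endothelium and early mesoderm) had signal in 0 of 6 D8 cells, and that count leaves room for a share of up to 45.9%. It was detected in 4 of 6 E9.5 cells (66.7%, 22.3 to 95.7%), at 5.33, 7.07, 5.33 and 3.40 cycles in E9.5-1, E9.5-2, E9.5-3 and E9.5-6. The other endothelial markers Cdh5 (VE-cadherin), Pecam1 and Vwf (von Willebrand factor) were at 0 in all 12 cells. Tnnt2-1 was detected in all 4 of the E9.5 cells with Flk-1.

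Kit, a receptor tyrosine kinase of progenitor and blood lineages, was read by a pair of assays that gave different accounts. Kit-2 was at 0, 3.36, 4.09, 0, 0 and 0 cycles in the D8 cells and at 3.47, 5.70, 3.65, 2.91, 3.35 and 3.83 in the E9.5 cells, so 2 of 6 D8 and 6 of 6 E9.5 cells detected it, with a difference of -2.58. Kit-1 was detected in 2 D8 and 3 E9.5 cells, with a difference of -0.58. Both assays gave signal in 1 D8 cell and in 3 E9.5 cells. Without the 3 D8 cells of few assays, the Kit-2 difference was -1.34 as measured and -0.59 centred on Actb, and the Kit-1 difference was 0.78 as measured.

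Among the 16 assays of progenitor genes and transcription factors, 10 were at least 1 cycle lower and 2 higher as measured, with a median difference of -1.32. Over all assays 57.1% were lower and 4.76% higher, so the list lay near the general share. Centred on Actb, 3 were lower and 3 higher, with a median of 0.00085. The cardiac homeobox factor Nkx2-5 was detected in every cell by both assays: Nkx2.5-1 averaged 9.20 ± 1.16 cycles in D8 and 10.33 ± 0.34 in E9.5 cells (SD, n = 6 each). Its difference of -1.13 turned to 0.65 on Actb, and those of Mef2C-1 and Mef2C-2, assays of a MADS-box factor of muscle, were -1.52 and -1.77, which turned to 0.26 and 0.0017.

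Gata4, a zinc finger factor of the heart, differed between its assays. Gata4-1 was at 6.43, 4.46, 5.52, 0, 0 and 0 cycles in the D8 cells and at 6.66, 6.26, 6.40, 5.89, 6.38 and 6.55 in the E9.5 cells, a difference of -3.62. Gata4-2 was detected in all 12 cells, with means of 7.05 ± 1.20 in D8 and 8.74 ± 0.63 in E9.5 cells (SD, n = 6 each), a difference of -1.69 as measured and 0.08 on Actb. The 3 D8 cells without Gata4-1 signal were D8-4, D8-5 and D8-6. In the other 3 D8 cells the Gata4-1 difference was -0.88 as measured and -0.26 on Actb.

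The T-box factor Tbx5 was missing in D8-4 alone and averaged 5.15 ± 2.60 cycles in D8 and 7.06 ± 1.27 in E9.5 cells (SD, n = 6 each). Hand2, a bHLH factor known from the right ventricle, was detected in all 12 cells and differed by -0.46 as measured. Centred, its difference was 1.32 on Actb, 1.09 on the median detected assay and 1.32 on Tnnt2-1. Hand1, its relative of the left ventricle and outer curvature, was uneven in both sets. It was at 5.11, 5.95, 10.45, 0, 0 and 0 cycles in the D8 cells and at 8.97, 10.92, 0, 0, 8.44 and 0 in the E9.5 cells. The Hand1 difference of -1.14 turned to 2.45 without the 3 D8 cells of few assays.

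Pdgfra, a receptor of mesoderm and mesenchyme, was at 8.17, 5.11, 0, 0, 0 and 4.57 cycles in the D8 cells, and at 4.83 in E9.5-1 and 0 in the other E9.5 cells. It was detected in 3 of 6 D8 cells (50%, exact 95% interval 11.8 to 88.2%) and 1 of 6 E9.5 cells (16.7%, 0.42 to 64.1%), with overlapping intervals and a difference of 2.17. Isl1-2, an assay of a second heart field factor, was at 5.44 in D8-1 and 4.46 in D8-2, the same cells that had the highest Pdgfra, and at 0 in the other 10 cells. Isl1-1, the other assay of that gene, was at 0 in all 12 cells, as were Tbx1 and Mesp1, which marks nascent cardiac mesoderm.

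Vim (vimentin, an intermediate filament of mesenchymal and young cells) averaged 7.40 ± 1.13 cycles in D8 and 9.34 ± 0.77 in E9.5 cells (SD, n = 6 each). The lowest E9.5 cell was at 8.54 and the highest D8 cell at 8.45. Centred on Actb the Vim difference of -1.93 was -0.16. Fn1 (fibronectin) was detected in 5 of 6 D8 and 6 of 6 E9.5 cells and differed by -1.59 as measured and -0.08 on Actb. Of the 3 assays of the fibroblast and mesenchymal list, 2 were lower and 1, Pdgfra, higher as measured, beside 57.1% lower and 4.76% higher over all assays.

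The pluripotency factors were detected in some cells of each set. Pou5f1 (Oct4) was detected in 3 D8 and 2 E9.5 cells, with a highest level of 3.58 cycles in D8 and 5.07 in E9.5 cells. Sox2 was detected in 2 D8 and 4 E9.5 cells, with a highest level of 5.04 in D8 and 5.35 in E9.5 cells. The differences of means were 0.17 for Pou5f1 and -0.44 for Sox2.

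D8 cells were less alike than E9.5 cells in the raw values. Of the 16 assays detected in all 12 cells, 15 had the larger SD in D8, and the median SD was 1.18 cycles in D8 and 0.63 in E9.5 cells. Centring on Actb brought these medians to 1.05 in D8 and 0.95 in E9.5 cells. Over assays, the 15 pairs of D8 cells had a median Pearson correlation of 0.81, the 15 pairs of E9.5 cells 0.90, and the 36 pairs of a D8 with an E9.5 cell 0.81. These correlations are across assays within pairs of cells, and the assays share the efficiency of their primers in every cell.

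Against the reference cell types of the series, all 12 cells correlated best with the cardiomyocyte mean over the assays other than Actb. The correlation ran between 0.70 and 0.84 in D8 cells and between 0.66 and 0.75 in E9.5 cells. The highest Isl1-2 and Cnn2 values of the reference cardiomyocytes, 2.48 and 6.84 cycles, equalled the highest values of the D29 culture cells. The reference may thus hold cultured cells, which was not tested, so it is not a neutral standard between culture and embryo. With the smooth muscle mean it ran between 0.02 and 0.09 in D8 and between 0.07 and 0.28 in E9.5 cells. Set against the embryo stages, 4 of the 6 D8 cells were closest to E10.5 and 2 to E9.5. By distance between centred profiles, 3 were closest to each. The correlations of D8-1 were 0.845 with E9.5 and 0.855 with E10.5, and those of D8-6 were 0.843 and 0.855. D8-4 and D8-5, also closest to E10.5 by correlation, were cells of few detected assays. In the other direction, all 6 E9.5 cells were closest to D8 among days 5 to 8, with correlations between 0.86 and 0.88, and day 7 followed with 0.74 to 0.84.

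The neighbouring days and stages show where the differences sit. Sm22A averaged 10.07, 7.08, 3.38 and 4.06 cycles on days 5, 6, 7 and 8, and 3.82, 6.79, 11.35 and 6.86 at E7.5, E8.5, E9.5 and E10.5. E9.5 thus had the highest Sm22A mean of the stages, and days 7 and 8 had the lowest means of the days. Sm22A averaged 7.94 ± 3.09 in 66 further cells named E10.5 (SD between cells). Set against the 6 E10.5 cells in place of E9.5, the D8 cells differed by -2.80 for Sm22A, and set against the E8.5 cells by -2.73.

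Vcam1 averaged 0, 0.65, 0.37 and 0.58 cycles on days 5, 6, 7 and 8, and 0, 3.56, 5.33 and 4.04 at E7.5, E8.5, E9.5 and E10.5. No day of culture reached the mean of any stage other than E7.5, and Vcam1 was detected in 50 of the 66 further E10.5 cells. Flk-1 averaged 5.89, 5.0, 1.91 and 0 cycles on days 5, 6, 7 and 8, and 8.45, 3.48, 3.52 and 2.63 at the stages in order, so both series had their highest Flk-1 mean at their first point. Kit-2 was different again, at 1.24 on day 8, 3.82 at E9.5 and 1.26 at E10.5. Against E10.5 the Kit-2 difference of D8 cells was -0.02.

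**Figure D5:**
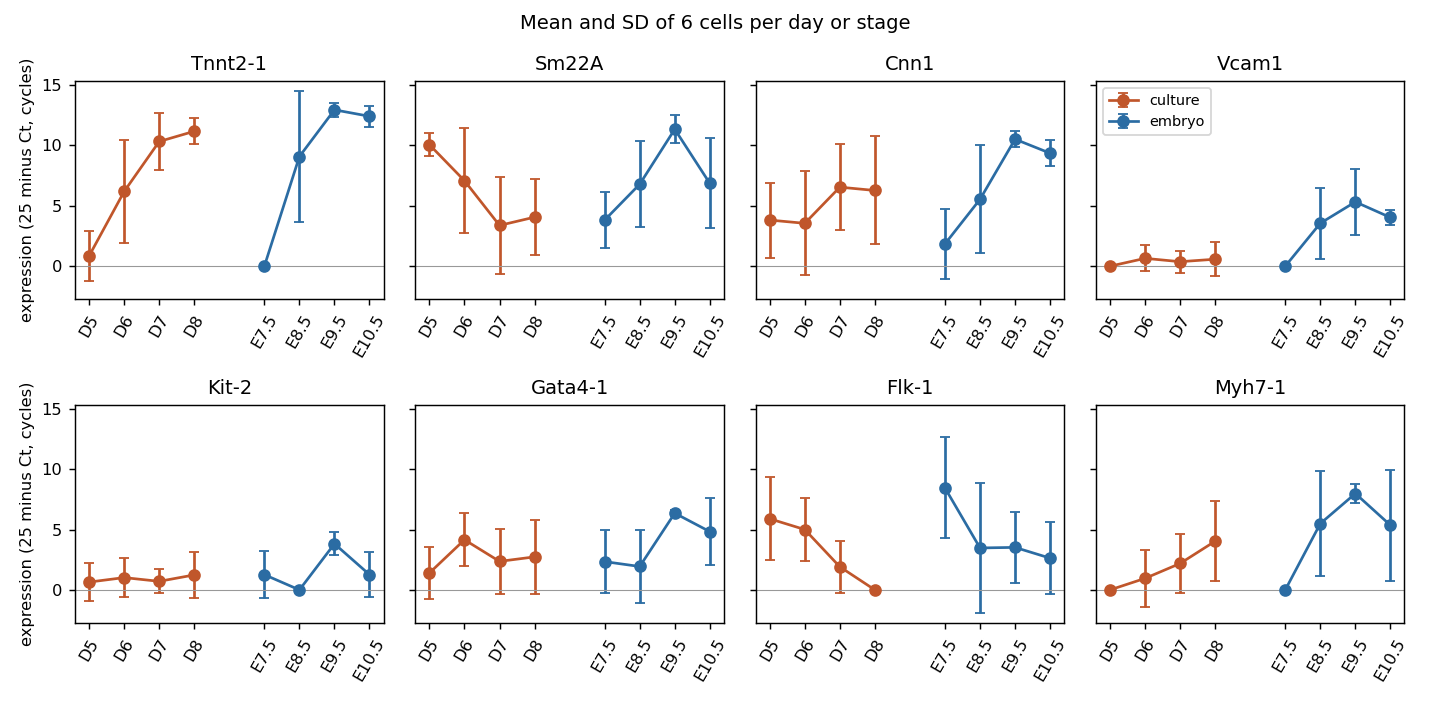
Mean expression (25 minus Ct, in cycles) with the SD of 6 cells per point for 8 assays, on days 5 to 8 of culture (left) and at stages E7.5 to E10.5 (right). Vcam1 stays below 1 cycle on every day of culture, while Sm22A peaks at E9.5 in the embryo and at day 5 in culture.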

How the data were processed

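Single cells were sorted, lysed, reverse transcribed and pre-amplified with TaqMan assays, and read on Fluidigm chips, per the labels' protocols. The values deposited by the authors are Ct values, another unit than counts, which end at 25, the value of every assay in the negative controls; the normalization and calling software are unstated in the sources at hand. Expression was computed as 25 minus Ct. No filter was applied, and a filter at 3 median absolute deviations left out 0 of the 12 cells. In centred values an undetected assay took the lowest centred value among the 12 cells. Because each set is 1 sample, means, SDs over cells and exact Clopper-Pearson 95% intervals were computed with no test, using Python 3.11.15, pandas 2.3.3 and scipy 1.17.1. Depth is not given by Ct values beyond the number of detected assays. The design had no replicates of a condition, and 6 cells a set limit the precision.

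The named assays were the markers of the comparison, the 12 with the largest difference in each direction among those of at least 1 cycle, those whose detection differed by 50 percentage points or more, and members of the marker lists. The cells, assays and lists were chosen with earlier results of these data known. Scripts were tested on simulated data. Promoters came from RefSeq, where 21 of the 33 genes had an entry. The alternatives were other centrings, a limit at Ct 23, means over detecting cells, medians, a size of 2 cycles, a gene's assays averaged, neighbouring days and stages, and leaving out cells.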

Additional observations from a re-analysis of the deposited data

Results flagged for a closer look

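Over both sets, 69 groups of 6 values were searched for 1 cell that stands apart from the other 5, and 9 were found. The rule used flags about 1 in 20 groups of normal values without ties, but many of these groups hold zeros. An assay with signal in 1 of 6 cells is flagged by construction, as Vcam1 in D8 and Pdgfra in E9.5 cells were. The 9 were therefore not compared with that rate, and Myh6-1 and Myh6-2 read the same gene. Among D8 cells, D8-4 was the low cell for Tbx5, at 0 cycles, for Myh6-1, at 7.53, and for Myh6-2, at 6.81, and it also had the lowest Actb. D8-3 was the high cell for Vcam1, at 3.47, as the only D8 cell with signal. Among E9.5 cells, E9.5-1 was the high cell for Pdgfra, at 4.83, and for the number of detected assays, at 34. E9.5-2 was the high cell for Kit-2, at 5.70. E9.5-3 was the low cell for Vcam1, at 0, and for Tnni3-1, at 7.74.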

How the results depend on the processing

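No paired analysis was possible because the result comes from no test and cell numbers name no shared culture or embryo. As measured, 2 assays were higher and 24 lower in D8 cells, and these counts changed with the scale and with the stage compared. Centred on Actb they were 7 and 10, centred on each cell's median 5 and 10, and centred on Tnnt2-1 7 and 9, a centring chosen after seeing the data. The median of the cardiomyocyte list turned to 0.25, 0.023 and 0.25 on these scales, that of the progenitor list to 0.00085 on Actb and 0.047 on Tnnt2-1, and that of the fibroblast list to 0.14 on Tnnt2-1. Assays are listed here as turned where a difference of at least 1 cycle as measured changed sign. On Actb, 6 assays turned: Mef2C-2 (0.0017), Mef2C-1 (0.26), Gata4-2 (0.085), Nkx2.5-2 (0.27), Nkx2.5-1 (0.65) and Actn2 (0.51). Smaller negative differences also changed sign on Actb, among them Myh6-1 (1.41), Tnni3-1 (1.11), Tnni3-2 (1.22) and Hand2 (1.32). Those assays changed sign on the median and on Tnnt2-1 as well. On the median, Mef2C-1 (0.029), Nkx2.5-2 (0.044), Nkx2.5-1 (0.42) and Actn2 (0.28) turned. On Tnnt2-1, Actb (0.0034), Mef2C-2 (0.0051), Mef2C-1 (0.26), Gata4-2 (0.088), Nkx2.5-2 (0.28), Nkx2.5-1 (0.65), Actn2 (0.51) and Fn1 (0.14) turned. Without the 3 D8 cells of few detected assays, also chosen after seeing the data, 5 assays were higher and 12 lower, the difference in detected assays was 0.5, and the medians were -1.51 (smooth muscle) and 0.11 (fibroblast), with Hand1 at 2.45 and Fn1 at 0.11. A detection limit of Ct 23 gave 1 higher, means over detecting cells 0, a size of 2 cycles 1 higher and 10 lower, and averaging a gene's assays 1 higher. Medians over cells put the smooth muscle list at -1.79. With E8.5 in place of E9.5, 16 were higher and 14 lower, detected assays differed by 1.67, and the medians were 2.67 (cardiomyocyte), 0 (smooth muscle) and 0.97 (progenitor). There Pdgfra (-2.70), Tbx5 (0.89), Kit-2 (1.24), Mef2C-2 (2.08), Gata4-2 (2.55), Gata4-1 (0.80), Nkx2.5-2 (1.38), Nkx2.5-1 (2.33), Hand1 (1.51), Actn2 (2.15), Myl2 (2.33), Tnnt2-2 (3.01), Tnnt2-1 (2.09) and Cnn1 (0.73) turned. Smaller differences changed sign against E8.5 too, among them Tnni3-2 (5.66), Myh6-1 (4.57), Tnni3-1 (3.41) and Hand2 (1.63). With E10.5 in place of E9.5, 14 were lower, and Actb (0.40), Tbx5 (0.015), Hand1 (2.20), Myl2 (2.38) and Myh7-2 (0.99) turned. With day 7 in place of day 8, 4 were higher and Hand1 was at 2.81. Leaving out 1 cell at a time, such as D8-1 (replicate 1), gave 1 to 3 higher and 21 to 27 lower, a difference in detected assays between -4.9 and -2.7, and medians between -1.74 and -1.21 (cardiomyocyte), -4.94 and -2.99 (smooth muscle), -1.99 and -0.70 (fibroblast) and -1.61 and -0.85 (progenitor). Hand1 ran between -2.51 and 0.10, turning without E9.5-2. Of these results, Sm22A, Vcam1 and Flk-1 stayed lower under every alternative that gave a value, as did other assays such as Myh7-1, Cnn2 and Vim. For Cnn2 and Vim the centred differences were within 1 cycle. Causes were not tested.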
